A study of Homo sapiens with 65 samples.

Results

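The comparison described here is that of cardioids carrying a HAS2 knockout with wild-type cardioids at day 2.5 of differentiation. Its members are the 12 libraries whose titles give day 2.5 with the genotype KO or WT, 6 of each, out of 65 libraries in the series. Cardioids are self-organising heart-like aggregates grown from the human induced pluripotent stem cell line WTC-11, here with a left ventricular protocol, and each library pooled 8 of them. Cells were induced to mesoderm in a flat layer until day 1.5, then dissociated and spun together into aggregates, so that day 2.5 is a day after aggregation in cardiac patterning medium with a ROCK inhibitor. The KO libraries came from 4 clones labelled HAS2-KO: cl4 (3 libraries, R1 to R3), cl14, cl46 and cl51 (1 each). The WT libraries came from 4 line names: WT and WT_TU (2 each), cl43_WT_UT and TNT2 (1 each). All 12 were made in WTC-11 cells and given the same media, and the labels name no further agent or allele. They do not explain the line names WT_TU, cl43_WT_UT and TNT2, so whether a line carries an added allele is not known. Libraries of 1 clone or line are not separate edits, so the p-values measure the spread between these 12 libraries, to which clone cl4 contributes 3 of 6 on the KO side. Outside the 12, the text uses KO and WT libraries of days 1.5, 4.5 and 7.5, and an enzyme arm at day 2.5 with 3 untreated libraries and 3 given hyaluronidase from day 1.5 (HAse1.5), from the lines TNNI1, WT and TNNT2. Library names of the enzyme arm write TNNT2 as TNT2, and the labels do not say whether this is the WT line named TNT2.

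HAS2 is a membrane enzyme that spins the sugar polymer hyaluronan into the space around cells, and mouse embryos without it lack the swollen matrix of the early heart and die with heart defects. Cardiac mesoderm leaves the primitive streak under NODAL, BMP, WNT and FGF signals, passes through a brief phase in which MESP1 and MESP2 are transcribed, and then switches on cardiac factors such as TBX5, HAND1 and GATA4 before the sarcomere genes. MESP2 and its partners also act in presomitic mesoderm, the tissue that is cut into somites.

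Total counts were 831062 to 3241683 per day 2.5 library (median 1770494.5), and the shallowest was KO cl4_R1. HAS2 itself was read at 370, 716 and 869 CPM (a gene's count scaled to a common library total; lowest, median and highest) in WT and at 442, 515 and 913 CPM in the libraries labelled KO. The groups overlapped (log2 fold change −0.23, SE 0.27, adjusted p 0.77). The kit counts the 3′ end of transcripts, which an edit elsewhere in the gene may leave in place, so this value does not check the labels. Markers of cardiac mesoderm, the labelled identity being cardiac progenitor, were all detected in both groups, with a summed level of 1197 to 2300 CPM in WT and 681 to 1330 CPM in KO. Most of this sum was HAND1 and PDGFRA, and the markers include TBX5, lower in KO, and MESP1, higher in KO. Pluripotency markers summed to 152 to 253 CPM in WT and 211 to 265 CPM in KO. When each library was left out of the fit and then placed by the genes called without it, both WT_TU libraries (59.4% and 61.0% of those genes nearer the WT mean) and KO cl4_R1 (68.7% nearer the KO mean) stood closer to the other group than the remaining 9 libraries did (85.7% to 95.5%).

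At day 2.5, 137 of 13797 genes tested differed between KO and WT (0.993%; edgeR quasi-likelihood test, adjusted p under 0.05, here "called"). Of these 68 were higher in KO (0.493%) and 69 lower (0.5%). The higher genes were low in WT, with a median of 5.68 CPM there and 24.0 CPM in KO. The lower genes were more abundant, with medians of 72.2 CPM in WT and 27.1 CPM in KO. In 83 of the 137, all KO libraries lay on one side of all WT libraries (53 above, 30 below), against 1.82% of all genes tested. The direction was the same within library blocks A, B and C, which are runs of library numbers, for 135, 137 and 137 of the genes. The counts of groups apart and of direction reuse the libraries that made the calls. They describe the called genes and are not separate evidence. With these blocks as a term in the fit 292 genes were called, 135 of the 137 among them (all but MYH6 and DEGS1), and with the 6 libraries of block C alone 535 were. The count was 66 without WT_R1, 84 without cl43_WT_UT, 86 without KO cl14_R1 and 30 without the 3 libraries of clone cl4. Without the 3 libraries that stood apart, 1 at a time, it was 128 (WT_TU_R1), 146 (WT_TU_R2) and 115 (KO cl4_R1). Of the 137, 55 were called whichever single library was left out, and 27 were called without clone cl4. The median log2 fold change over all genes tested was 0.01.

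**Figure D1:**
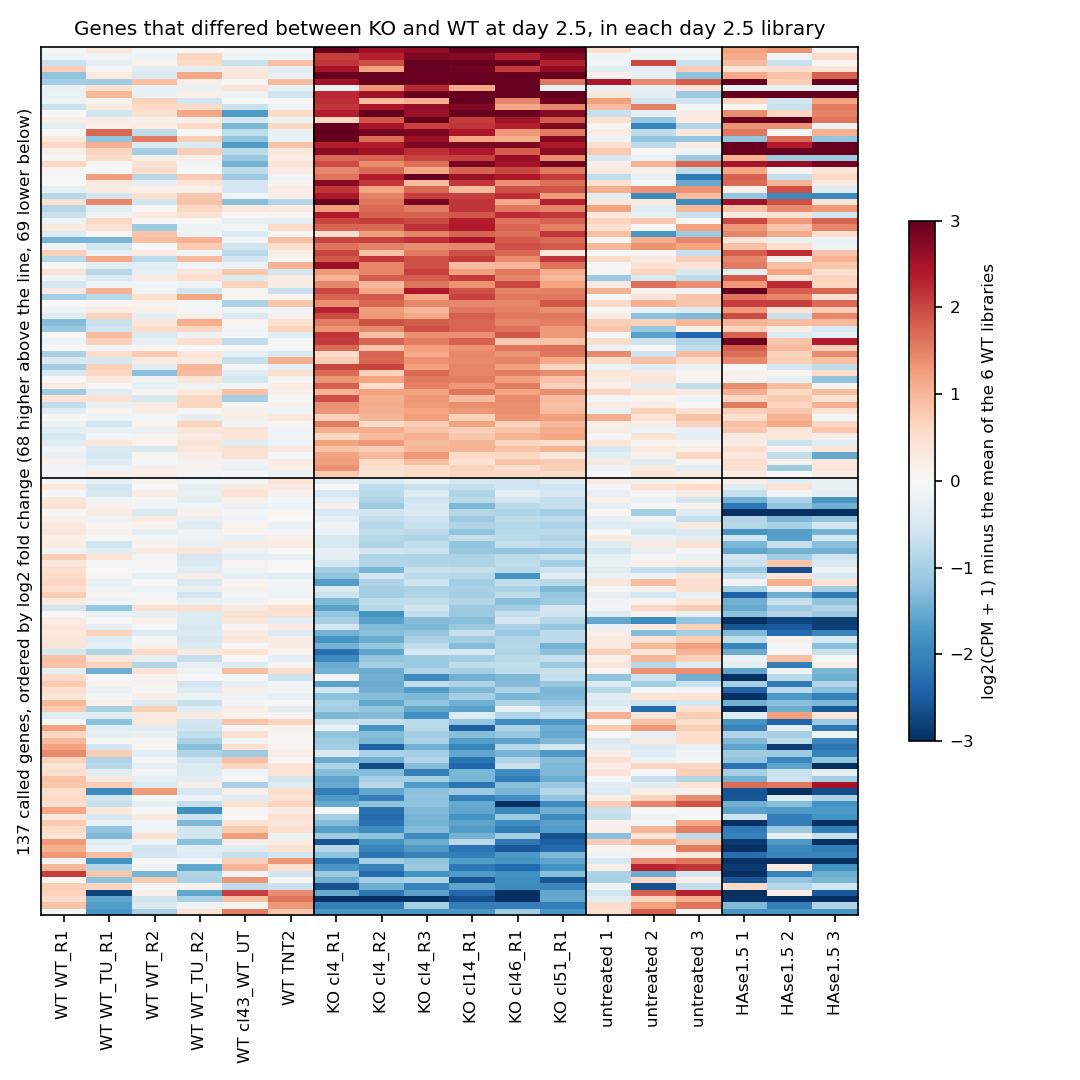
Each row is 1 of the 137 called genes, ordered by log2 fold change, and each column a day 2.5 library; colour gives log2(CPM + 1) minus the mean of the 6 WT libraries, clipped at 3. The 6 KO columns are mostly red above the line (68 genes) and mostly blue below it (69 genes); the untreated enzyme-arm columns are pale and the HAse1.5 columns are in good part blue below the line.

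Some transcription factors of the streak and of the MESP phase were higher in KO. In the list of MESP and presomitic segmentation genes, 6 of 19 tested were higher and none lower (31.6%), with a median log2 fold change of 1.08. Of all genes tested 0.993% were called, the share to set beside each list share here and below. The lists were written with earlier results of these data known, so their shares and medians are not separate evidence. MESP2 (chr15:89760591-89778754, plus strand, GRCh38), a basic helix-loop-helix factor of early and presomitic mesoderm, had 1.97, 3.00 and 8.02 CPM in WT (lowest, median and highest) and 20.5, 45.7 and 64.2 CPM in KO. Every KO library lay above every WT library, and the log2 fold change was 3.36 (SE 0.45, adjusted p 3.06e-05). MESP1, its neighbour on chromosome 15 and the factor of the earliest heart precursors, had 0.713, 3.19 and 4.89 CPM in WT and 11.5, 18.7 and 21.8 CPM in KO, also without overlap (log2 fold change 2.48, SE 0.46, adjusted p 0.00225). MIXL1, a homeobox factor of the primitive streak, had 0.510, 3.68 and 5.14 CPM in WT and 9.55, 18.1 and 28.1 CPM in KO. Its groups did not overlap, and the log2 fold change was 2.42 (SE 0.36, adjusted p 0.000117).

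Of the other 4 segmentation genes that were called, PCDH19, FOXC1 and DLL3 were well detected in WT and TCF15 was low. PCDH19, a protocadherin, had 13.6, 22.5 and 30.7 CPM in WT and 77.7, 90.6 and 119 CPM in KO, without overlap (log2 fold change 2.00, SE 0.36, adjusted p 0.00169). FOXC1, a forkhead factor of paraxial mesoderm, had 38.2, 60.2 and 108 CPM in WT and 112, 204 and 278 CPM in KO (log2 fold change 1.41, SE 0.27, adjusted p 0.00295). For DLL3, a divergent NOTCH ligand, the values were 48.9, 64.4 and 108 CPM and 148, 201 and 259.9 CPM (log2 fold change 1.49, SE 0.30, adjusted p 0.0061). TCF15, a paraxial mesoderm factor, had 1.02, 3.13 and 9.25 CPM in WT and 12, 21.3 and 33.9 CPM in KO (log2 fold change 2.34, SE 0.50, adjusted p 0.00871). For FOXC1, DLL3 and TCF15 too the KO libraries lay above the WT libraries. These 6 genes and MIXL1 were called whichever single library was left out, and MESP2, MESP1, MIXL1 and PCDH19 were also called without clone cl4 (adjusted p 6.04e-05, 0.0416, 6.04e-05 and 0.028). Without it FOXC1 had a log2 fold change of 1.09 (adjusted p 0.155), DLL3 1.56 (0.0539) and TCF15 2.27 (0.0876).

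Other members of the 2 lists did not pass the test. TBXT, the factor that defines the streak, had 0 counts in every WT library and 0, 0.548 and 4.81 CPM in KO (adjusted p 0.266). TBX6, a presomitic factor, had 0.983, 4.23 and 21.6 CPM in WT and 8.04, 14.4 and 21.6 CPM in KO, with overlap (log2 fold change 0.99, adjusted p 0.476). With the library blocks in the fit TBX6 passed (1.71, adjusted p 0.0079) and TBXT did not (0.288). EOMES, a T-box factor above MESP1, had 47.4, 67.8 and 92.2 CPM in WT and 44.2, 74.4 and 108 CPM in KO, with overlap (log2 fold change 0.06, adjusted p 0.965). In the list of streak transcription factors, 2 of 13 tested were higher (MIXL1 and MESP1) and none lower. Of the presomitic marker list, MSGN1 was at 0 in every library of both groups and PAX3 in every WT library. The 7 presomitic markers summed to 52.5 to 140.4 CPM in WT and 205 to 291 CPM in KO. Most of this sum was the called gene DLL3, with means of 69.0 CPM in WT and 201 CPM in KO. The 6 cardiomyocyte markers summed to 92.1 to 359 CPM in WT and 28.7 to 67.4 CPM in KO. Most of this sum was the called gene MYL7 (means of 91.8 and 27.1 CPM) and NKX2-5, which was not called (62.4 and 14.3 CPM). Of the 6 markers 3 are called genes (TNNT2, MYL7 and MYH6), so the sum is not a separate readout. A negative log2 fold change was found for 5 and a positive one for 1 (ACTN2). In pooled cardioids, more or fewer cells of a type and a change of RNA per cell cannot be told apart.

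**Figure D2:**
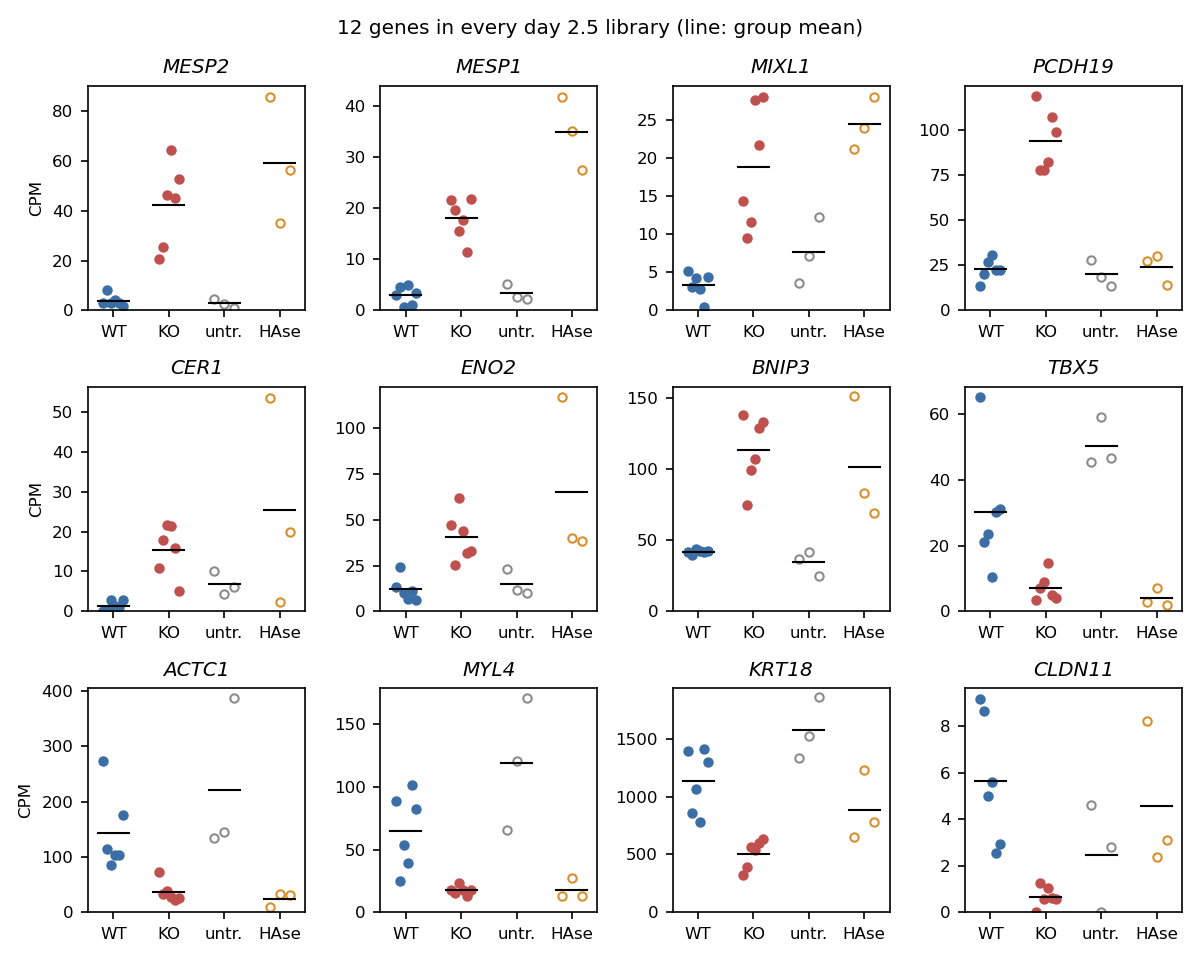
CPM of 12 genes in each day 2.5 library (points) with the group mean (line); filled points are the 6 WT and 6 KO libraries, open points the 3 untreated and 3 HAse1.5 libraries. MESP2, MESP1, MIXL1, PCDH19, CER1, ENO2 and BNIP3 lie higher in KO without overlap, and ACTC1, MYL4, KRT18 and CLDN11 lower without overlap, while 1 KO library lies above the lowest WT library for TBX5.

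Among signalling genes, the called ones were mostly secreted ligands and antagonists. CER1, a secreted antagonist of NODAL, BMP and WNT, had 0, 1.21 and 2.95 CPM in WT and 5.17, 16.9 and 21.7 CPM in KO, without overlap. The log2 fold change was 3.65 (SE 0.81, adjusted p 0.0139). It was the only called gene of 15 tested in the NODAL list, where NODAL itself had at most 2.20 CPM in WT and 1.91 CPM in KO. Without WT_R1 CER1 missed the threshold (adjusted p 0.058), as it did without clone cl4 (0.111).

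In the WNT list, 3 genes of 32 tested were higher (CER1, WNT4 and SFRP1) and 2 lower (WLS and FZD4), with a median of 0.02. WNT4, a ligand, had 1.02, 1.90 and 2.79 CPM in WT and 4.45, 9.75 and 18 CPM in KO, apart (log2 fold change 2.25, SE 0.57, adjusted p 0.0468); its call was lost in 11 of the 12 fits that left out a library, with an adjusted p of up to 0.123 without WT_R1. SFRP1, a secreted WNT antagonist, had 119, 149.7 and 197 CPM in WT and 216, 301 and 370.5 CPM in KO, without overlap (log2 fold change 0.89, SE 0.19, adjusted p 0.00965). WLS, the carrier that WNT ligands need to leave the cell, had 181, 221 and 295 CPM in WT and 100.2, 125 and 188 CPM in KO. The highest KO library lay above the lowest WT library, and the log2 fold change was −0.87 (SE 0.15, adjusted p 0.00163), called with any library and with clone cl4 left out. FZD4, a WNT receptor, had 81.7, 94.7 and 122 CPM in WT and 50.9, 62.1 and 80.6 CPM in KO, without overlap (log2 fold change −0.71, SE 0.15, adjusted p 0.00819). Without clone cl4, SFRP1 had 0.67 (adjusted p 0.378) and FZD4 −0.76 (0.0863). AXIN2, a common WNT target, had 4.04, 12.3 and 20.9 CPM in WT and 13.2, 16.4 and 26.2 CPM in KO (adjusted p 0.655).

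BAMBI, a decoy receptor that is itself a BMP target, had 49.6, 62.0 and 90.7 CPM in WT and 19.5, 24.3 and 42.1 CPM in KO, all KO libraries below all WT libraries (log2 fold change −1.31, SE 0.19, adjusted p 0.000104; without clone cl4 −1.32, adjusted p 0.00582). It was the only called gene of 24 tested in the BMP list, of which 21 had a negative log2 fold change (median −0.40). BMP4, a ligand, had 510.0, 579 and 834 CPM in WT and 301, 422 and 463 CPM in KO, apart but not called (log2 fold change −0.70, adjusted p 0.331), and ID3, a target, had a log2 fold change of −0.40 (adjusted p 0.759). In the FGF list 2 ligands of 28 genes tested were higher and none lower. FGF3 had 0, 0.154 and 1.10 CPM in WT and 1.91, 6.45 and 11.1 CPM in KO, without overlap (log2 fold change 3.85, SE 0.82, adjusted p 0.011). Without clone cl4 FGF3 was too low to be tested. FGF18 had 0, 1.41 and 5.71 CPM in WT and 3.83, 9.58 and 24.1 CPM in KO, with overlap (log2 fold change 2.56, SE 0.59, adjusted p 0.0176). FGF18 lost its call without KO cl4_R1, WT cl43_WT_UT or WT TNT2 (adjusted p up to 0.0583) and without clone cl4 (log2 fold change 2.07, 0.292). The ERK feedback gene DUSP6 had 215, 301 and 583 CPM in WT and 92.9, 163 and 208 CPM in KO, also apart but not called (log2 fold change −1.18, adjusted p 0.0588). With the library blocks in the fit BMP4 (−0.94, adjusted p 0.00992) and DUSP6 (−0.97, 0.0079) passed.

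The genes with the highest fold changes outside these lists were mostly near 0 in WT. PPP1R17, which encodes a regulator of protein phosphatase and is known from the brain, had 1 count over the 6 WT libraries and 86 over the 6 KO libraries, a ratio of shares of 117 with a 95% counting interval of 20.4 to 4665. Its KO libraries had 5.09, 9.97 and 14.4 CPM (adjusted p 0.00409). TRPC6, a calcium-permeable channel, had 0, 1.42 and 4.19 CPM in WT and 16.7, 22.9 and 34.4 CPM in KO (log2 fold change 3.84, SE 0.64, adjusted p 0.0011). KCNA1, a voltage-gated potassium channel, had 0, 2.88 and 6.28 CPM in WT and 15.6, 23.4 and 37.6 CPM in KO (log2 fold change 3.09, SE 0.60, adjusted p 0.00478). CHRNA3, a nicotinic acetylcholine receptor subunit, had 0, 2.73 and 5.86 CPM in WT and 15.6, 18.9 and 21.9 CPM in KO (log2 fold change 2.52, SE 0.45, adjusted p 0.00163). The groups were apart for all of these, and each was also called without clone cl4 (adjusted p 0.0321, 0.0184, 0.0384 and 0.025). TRPC6 and CHRNA3 were the 2 called genes of 28 tested in the list of TRP and other channels, which held none lower.

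PPFIA4, a liprin scaffold protein, had 0.510, 1.41 and 1.54 CPM in WT and 2.41, 7.68 and 18.9 CPM in KO (log2 fold change 2.83, SE 0.53, adjusted p 0.0027). C10orf71 had 0, 0.709 and 1.43 CPM in WT and 2.55, 6.83 and 9.92 CPM in KO (log2 fold change 3.16, SE 0.65, adjusted p 0.00871), and without clone cl4 2.90 (adjusted p 0.122). Both were without overlap and called with any 1 library left out. PAX7 had 0, 0.501 and 1.43 CPM in WT and 1.91, 4.60 and 11.5 CPM in KO (log2 fold change 3.22, SE 0.84, adjusted p 0.0483), and OTX1 0, 0.595 and 4.63 CPM in WT and 3.19, 9.74 and 18 CPM in KO, with overlap (log2 fold change 2.72, SE 0.71, adjusted p 0.0471). The calls of PAX7 and OTX1 were lost in 7 and 10 of the 12 fits without 1 library, each with the highest adjusted p without WT_R1 (0.144 and 0.142). Each was still called in 2 of these fits, and in the remaining ones PAX7 was too low to be tested. Without clone cl4 neither gene was tested. C6orf132 (19.7 CPM median in WT, 84.1 in KO) had the smallest adjusted p of the 137 (1.91e-05; log2 fold change 1.94). NPY, a neuropeptide, had 3.57, 9.40 and 13.3 CPM in WT and 26.4, 31.3 and 49.6 CPM in KO (log2 fold change 1.85, SE 0.33, adjusted p 0.00163). ITGA9, the only called gene of 12 integrins tested, had 2.85, 8.96 and 16.8 CPM in WT and 14, 24.8 and 28.9 CPM in KO, with overlap (log2 fold change 1.30, SE 0.33, adjusted p 0.0387; lost in 9 of the 12 fits, 0.144 without WT_R1). C6orf132 and NPY lie outside the naming rule and were picked after their values were seen.

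In the list of glycolysis and hypoxia response genes, the called genes were all higher. Of 28 tested, 5 were higher and none lower (17.9%), 21 had a positive log2 fold change, and the median was 0.48. ENO2, a glycolytic enolase, had 6.39, 10.6 and 24.1 CPM in WT and 25.5, 38.3 and 61.7 CPM in KO, without overlap (log2 fold change 1.65, SE 0.32, adjusted p 0.004). BNIP3, a mitophagy receptor induced by low oxygen, had 39.5, 42.1 and 44.2 CPM in WT and 75.1, 119 and 138 CPM in KO, also apart (log2 fold change 1.39, SE 0.30, adjusted p 0.00965). KDM3A, an oxygen-dependent histone demethylase, had 16.0, 23.7 and 38.4 CPM in WT and 35.6, 44.7 and 71.0 CPM in KO (log2 fold change 0.93, SE 0.23, adjusted p 0.0339). VEGFA, the vascular growth factor, had 22.8, 32.9 and 44.9 CPM in WT and 41.3, 58.0 and 81.7 CPM in KO (log2 fold change 0.82, SE 0.21, adjusted p 0.0377), and ANKRD37 0.510, 1.68 and 3.30 CPM in WT and 2.30, 7.16 and 9.63 CPM in KO (log2 fold change 1.76, SE 0.45, adjusted p 0.0429). KDM3A, VEGFA and ANKRD37 overlapped between groups and lost their calls in 8, 7 and 9 of the 12 fits without 1 library (adjusted p up to 0.104 without WT_R1, 0.125 without KO cl4_R3 and 0.123 without KO cl14_R1). ANKRD37 overlaps UFSP2 on the opposite strand. Without clone cl4 none of the 5 passed: BNIP3 had 1.51 (adjusted p 0.0539), ENO2 1.49 (0.0863) and the others adjusted p of 0.169 to 0.72.

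LDHA and PGK1, 2 abundant glycolytic enzymes, did not pass: LDHA had 143, 201 and 368 CPM in WT and 285, 401 and 464 CPM in KO (log2 fold change 0.84, adjusted p 0.44), and PGK1 had a log2 fold change of 0.60 (adjusted p 0.388). With the library blocks in the fit PGK1 passed (0.77, adjusted p 0.0357) and LDHA did not (0.0596). Outside the list, and chosen after their values were seen, MIR210HG, AK4 and FAM162A, which are also known to respond to low oxygen, were called. MIR210HG, the host transcript of a microRNA, had 4.59, 6.86 and 9.77 CPM in WT and 13.8, 22.6 and 31.3 CPM in KO (log2 fold change 1.69, SE 0.39, adjusted p 0.0168). AK4, a mitochondrial adenylate kinase, had 24.3, 28.5 and 34.1 CPM in WT and 42.0, 78.0 and 102 CPM in KO (log2 fold change 1.25, SE 0.29, adjusted p 0.0177). FAM162A had 13.6, 17.6 and 37.0 CPM in WT and 35.0, 50.1 and 85.4 CPM in KO (log2 fold change 1.41, SE 0.34, adjusted p 0.024). The groups were apart for the first 2. FAM162A lost its call in 6 of the 12 fits (adjusted p up to 0.0684 without TNT2) and MIR210HG in 3 (up to 0.0634 without KO cl14_R1). Without clone cl4 none of the 3 passed (adjusted p 0.122 for MIR210HG, 0.151 for AK4 and 0.151 for FAM162A). PFKFB3, a regulator of glycolysis outside the list, was lower, with 85.8, 111 and 181 CPM in WT and 42.1, 50.9 and 70.0 CPM in KO (log2 fold change −1.17, SE 0.28, adjusted p 0.0281).

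Promoters of 2 of the hypoxia-list genes are shown because hypoxia-inducible factors bind short elements there. RefSeq promoter windows (250 bases before to 50 after the start, GRCh38.p14) were matched for 105 of the 137 called genes and for 4 of the 5 called genes of the hypoxia list, all but VEGFA. All 4 held ACGTG or GCGTG on either strand, as did 48.4% of 35116 promoters of the same length. ACGTG alone was in 3 of the 4 and in 21.4% of all promoters. A gene counts here if any of its windows held a match, while the shares of all promoters are per window; the 4 genes had 5 windows, of which 5 held either core. Capitals mark these cores on either strand in ANKRD37 (chr4:185396591-185396890, plus strand) and BNIP3 (chr10:131981874-131982173, minus strand), both written 5′ to 3′ along the gene.
ANKRD37: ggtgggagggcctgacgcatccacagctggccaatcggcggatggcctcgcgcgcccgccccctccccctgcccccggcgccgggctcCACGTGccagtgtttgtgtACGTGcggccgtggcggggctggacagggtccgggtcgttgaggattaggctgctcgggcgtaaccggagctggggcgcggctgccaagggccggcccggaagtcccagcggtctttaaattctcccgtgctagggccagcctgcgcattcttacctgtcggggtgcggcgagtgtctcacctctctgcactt
BNIP3: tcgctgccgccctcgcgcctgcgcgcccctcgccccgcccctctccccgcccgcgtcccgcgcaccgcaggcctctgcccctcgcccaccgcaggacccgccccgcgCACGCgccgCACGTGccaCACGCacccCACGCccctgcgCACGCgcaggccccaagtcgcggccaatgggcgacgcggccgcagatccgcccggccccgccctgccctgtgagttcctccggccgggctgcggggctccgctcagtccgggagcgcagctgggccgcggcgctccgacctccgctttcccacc
The first window held 3 matches and the second 6, with overlapping matches counted each. A match is a run of letters and not a measured binding site.

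TBX5 and several sarcomere genes were lower in KO. Of 28 sarcomere genes tested 6 were lower and none higher (21.4%), with a median of −0.49. Of 25 cardiac and lateral mesoderm transcription factors tested 1 was lower (TBX5), and 22 had a negative log2 fold change (median −0.53). TBX5 (chr12:114353931-114408442, minus strand), a T-box factor of the left ventricle and first heart field, had 10.5, 26.8 and 65 CPM in WT and 3.61, 6.05 and 14.6 CPM in KO. The ranges overlapped by the highest KO and the lowest WT library, and the log2 fold change was −2.06 (SE 0.35, adjusted p 0.00163). Without clone cl4 it was −1.97 (adjusted p 0.0552). ACTC1 (chr15:34788095-34795726, minus strand), cardiac actin, had 86.3, 109 and 274 CPM in WT and 21.7, 30.1 and 72.2 CPM in KO, all KO libraries below (log2 fold change −2.07, SE 0.41, adjusted p 0.00409; without clone cl4 −2.56, adjusted p 0.032). MYL4, the atrial and embryonic light chain, had 25.3, 67.8 and 102 CPM in WT and 12.8, 17.8 and 23.3 CPM in KO, apart (log2 fold change −1.94, SE 0.36, adjusted p 0.00225). MYL7, another atrial light chain, had 51.6, 93.8 and 136 CPM in WT and 9.57, 29.1 and 36.3 CPM in KO, apart (log2 fold change −1.81, SE 0.42, adjusted p 0.0186).

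The remaining sarcomere genes were lowly expressed or overlapped. TNNT2, cardiac troponin T, had 52 counts over the WT libraries and 2 over the KO libraries, a ratio of 19.2 (95% counting interval 5.04 to 162; adjusted p 0.00662). MYH6, the atrial heavy chain, had 39 counts over WT and 1 over KO, a ratio of 28.7 (4.86 to 1163; adjusted p 0.0213). In both the ranges of the groups overlapped. TPM1, a tropomyosin, had 118, 373 and 609.8 CPM in WT and 116, 169 and 205 CPM in KO (log2 fold change −1.22, SE 0.28, adjusted p 0.0155). MYH7 had 0 counts in all 12 libraries. Leaving out single libraries ended the calls of TPM1 (cl43_WT_UT, adjusted p 0.0813, and KO cl4_R2), MYL7 (KO cl46_R1, 0.0628, and WT_R1, TNT2 and cl43_WT_UT) and MYH6 (cl43_WT_UT, 0.0931, and KO cl14_R1, cl4_R3 and cl4_R2). Without clone cl4, MYL4 (−2.06, adjusted p 0.0539) and TNNT2 (0.0519) also missed the threshold.

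Other cardiac transcription factors were not called. NKX2-5 had 19.5, 36.8 and 179.9 CPM in WT and 7.66, 14.1 and 22.9 CPM in KO (log2 fold change −2.25, adjusted p 0.0711), with the highest WT value in WT_R1. HAND1 had 339.7, 476 and 1150.0 CPM in WT and 199.5, 298 and 427 CPM in KO (log2 fold change −1.06, adjusted p 0.0968), GATA4 95.6, 115 and 255 CPM in WT and 55.4, 61.3 and 123 CPM in KO (log2 fold change −1.07, adjusted p 0.105), and ISL1 84.8, 101 and 116 CPM in WT and 45.3, 58.2 and 75.8 CPM in KO (log2 fold change −0.79, adjusted p 0.382). For ISL1 all KO libraries lay below all WT libraries. With the library blocks in the fit NKX2-5 (adjusted p 0.00891), HAND1 (0.0461) and GATA4 (0.00562) passed, all lower in KO, and ISL1 did not (0.0891). PKP2, ALPK3 and TMEM88, outside the lists and chosen after their values were seen, were lower, while the heart muscle genes C10orf71 and CORIN, whose values are given elsewhere, were higher. PKP2, a desmosomal plakophilin, had 14.2, 28.3 and 40.3 CPM in WT and 3.18, 9.88 and 15.9 CPM in KO, with overlap (log2 fold change −1.63, SE 0.34, adjusted p 0.00662). ALPK3, a kinase of the sarcomere, had 142, 163 and 203 CPM in WT and 65, 83.1 and 98.4 CPM in KO, apart (log2 fold change −1.05, SE 0.18, adjusted p 0.000827). TMEM88, a WNT inhibitor of cardiac precursors, had 101, 140.4 and 179.9 CPM in WT and 50.5, 57.7 and 80.6 CPM in KO, apart (log2 fold change −1.21, SE 0.28, adjusted p 0.0183). Of these ALPK3 alone was called without clone cl4 (adjusted p 0.0163; PKP2 0.122 and TMEM88 0.151), and TMEM88 lost its call without WT_R1 or KO cl14_R1 (0.0666 at most).

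Promoters of ACTC1 and MYL7 are shown because serum response factor acts on muscle genes through the CArG box. Of the 6 called sarcomere genes 5 had a promoter in RefSeq, and 2 of these held the CArG consensus, which was in 1.29% of all promoters. That share is per window, and the 5 genes had 7 windows, of which 2 held it: ACTC1 has several windows, and among them a match was found only in the one shown. Capitals mark it in ACTC1 (chr15:34795500-34795799, minus strand) and MYL7 (chr7:44141283-44141582, minus strand).
ACTC1: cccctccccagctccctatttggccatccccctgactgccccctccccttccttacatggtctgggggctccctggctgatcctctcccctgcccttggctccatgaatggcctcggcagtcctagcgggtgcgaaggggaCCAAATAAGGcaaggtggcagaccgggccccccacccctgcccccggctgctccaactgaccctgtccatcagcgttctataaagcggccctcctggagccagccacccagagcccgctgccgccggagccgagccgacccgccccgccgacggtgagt
MYL7: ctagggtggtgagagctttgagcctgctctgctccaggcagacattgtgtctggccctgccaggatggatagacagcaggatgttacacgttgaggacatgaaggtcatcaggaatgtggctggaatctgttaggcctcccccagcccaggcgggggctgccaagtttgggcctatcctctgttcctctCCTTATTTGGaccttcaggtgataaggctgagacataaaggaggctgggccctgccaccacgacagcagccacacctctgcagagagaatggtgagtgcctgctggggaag
Each window held 1 match. In the list of YAP and serum response factor targets, 2 of 24 tested were lower (TPM1 and VCL) and none higher, 20 were negative and the median was −0.65. VCL, vinculin, had 154, 245 and 277 CPM in WT and 131.8, 146 and 223 CPM in KO (log2 fold change −0.62, SE 0.15, adjusted p 0.0325), and lost its call in 8 of the 12 fits without 1 library (up to 0.129 without WT_R1). ANKRD1 and CCN2, classical YAP targets, did not pass (log2 fold changes −1.61 and −2.17, adjusted p 0.161 and 0.165).

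**Figure D3:**
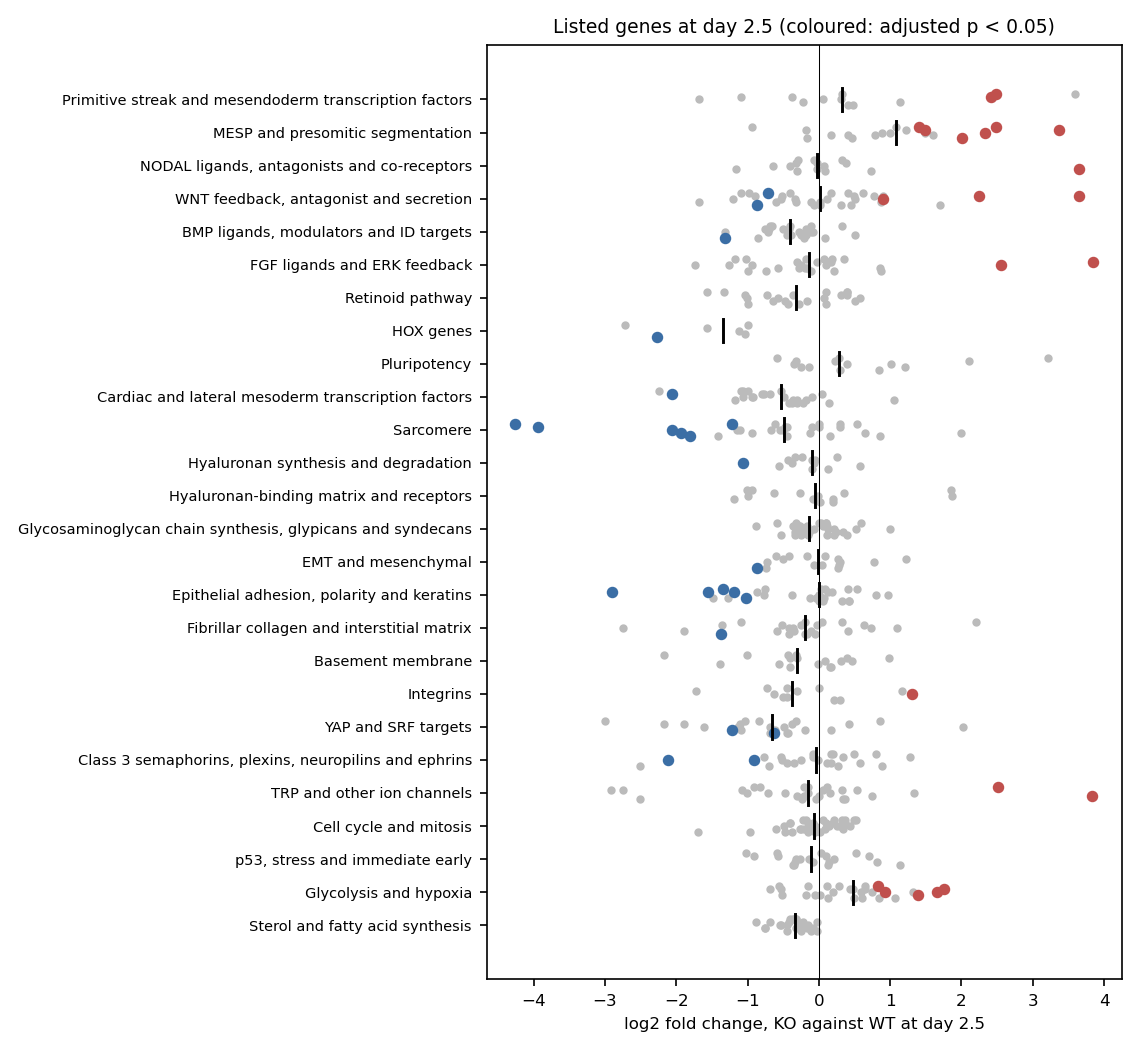
Log2 fold change (KO against WT, day 2.5) of each tested gene in 26 lists; red and blue points are genes higher and lower at an adjusted p under 0.05, grey points are not called, and the black bar is the list median. The sarcomere list reaches lowest with 6 blue points and the segmentation list has 6 red points and a median of 1.08.

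Some epithelial genes were lower, while the median of their list was near 0. Of 29 tested in the list of adhesion, polarity and keratin genes, 5 were lower and none higher (17.2%), but the median was 0.00. KRT18 and KRT8, the paired simple-epithelium keratins, were among the most abundant genes called. KRT18 (chr12:52948871-52952901, plus strand) had 782, 1182 and 1409 CPM in WT and 325, 549 and 637 CPM in KO, apart (log2 fold change −1.20, SE 0.20, adjusted p 0.000846). KRT8 had 597, 926 and 1898 CPM in WT and 327, 420.0 and 494 CPM in KO, apart (log2 fold change −1.35, SE 0.26, adjusted p 0.00324). CLDN11, a tight junction claudin, had 2.55, 5.29 and 9.18 CPM in WT and 0, 0.606 and 1.27 CPM in KO, apart (log2 fold change −2.90, SE 0.57, adjusted p 0.004). CRB2, an apical polarity protein needed for ingression at the streak, had 115, 167 and 286 CPM in WT and 77.5, 87.9 and 108 CPM in KO, apart (log2 fold change −1.02, SE 0.20, adjusted p 0.0061).

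CDH3, P-cadherin, had 14, 37.5 and 82.2 CPM in WT and 5.73, 14.5 and 24.1 CPM in KO, with overlap (log2 fold change −1.56, SE 0.41, adjusted p 0.0471; lost in 9 of the 12 fits, adjusted p 0.267 without WT_R1). Its antisense transcript CDH3-AS1 had a log2 fold change of −2.35 (adjusted p 0.0156; 0.184 without WT_R1, and also lost without KO cl4_R2). Without clone cl4, KRT18 had −0.99 (adjusted p 0.0539) and KRT8, CLDN11 and CRB2 each an adjusted p of 0.0863. The annotation places KRT8 and KRT18, CRB2 and DENND1A, FZD4 and PRSS23, CHRNA3 and CHRNA5, and CDH3 and CDH3-AS1 on overlapping stretches of opposite strands, and no strand setting of the count is known, so the members of a pair cannot be told apart with certainty. CDH1, E-cadherin, had 1.53, 3.23 and 5.58 CPM in WT and 3.13, 4.14 and 9.18 CPM in KO (adjusted p 0.755). In the mesenchymal list 1 of 16 tested was lower: VIM, vimentin, had 1474, 2501 and 2698 CPM in WT and 985, 1314 and 1614 CPM in KO (log2 fold change −0.86, SE 0.21, adjusted p 0.0291; lost in 7 of the 12 fits, up to 0.0941 without KO cl14_R1).

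Among genes that make, cut or bind hyaluronan, CEMIP2 alone was called. CEMIP2, a membrane protein described as a hyaluronidase, had 31.4, 38.6 and 57.6 CPM in WT and 11.5, 21.9 and 27.6 CPM in KO, apart (log2 fold change −1.07, SE 0.22, adjusted p 0.0071; without clone cl4 −0.90, adjusted p 0.169). It was 1 of 13 tested in the synthesis and degradation list. None of 14 hyaluronan-binding genes tested passed: the receptor CD44 had 0.308, 0.953 and 4.42 CPM in WT and 3.18, 4.64 and 10.8 CPM in KO (log2 fold change 1.85, adjusted p 0.0936), the link protein HAPLN1 101, 233 and 303 CPM in WT and 74.5, 102 and 163 CPM in KO (log2 fold change −1.01, adjusted p 0.112), and VCAN, versican, a log2 fold change of −0.02 (adjusted p 0.989). With the library blocks in the fit HAPLN1 passed (−1.21, adjusted p 0.00726) and CD44 did not (0.0538). Of 35 genes of glycosaminoglycan chains none was called. In the interstitial matrix list 1 of 25 tested was lower, TNC, a tenascin, with 8.33, 24.0 and 38.8 CPM in WT and 5.10, 10.3 and 13.2 CPM in KO (log2 fold change −1.38, SE 0.35, adjusted p 0.0412; lost in 9 of the 12 fits, up to 0.132 without cl43_WT_UT). None of 17 basement membrane genes passed, and LAMA1 had 139, 218 and 251 CPM in WT and 79.4, 105 and 126 CPM in KO, apart (log2 fold change −1.0, adjusted p 0.091; −1.22 and 0.000441 with the library blocks).

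A few guidance and positional genes were lower. In the list of semaphorins, plexins, neuropilins and ephrins, 2 of 24 tested were lower. SEMA3C, a secreted guidance cue of the outflow tract, had 1.85, 8.50 and 23.6 CPM in WT and 1.20, 2.19 and 3.82 CPM in KO (log2 fold change −2.12, SE 0.46, adjusted p 0.00965; without TNT2 adjusted p 0.0579). EPHB2, an ephrin receptor, had 188, 258 and 322 CPM in WT and 125, 137 and 176 CPM in KO, apart (log2 fold change −0.91, SE 0.20, adjusted p 0.0119; without WT_R1 0.0527). All 6 HOX genes tested of 25 listed had a negative log2 fold change (median −1.34). HOXB5 was called, with 8.38, 31.1 and 55.1 CPM in WT and 4.47, 6.31 and 11.7 CPM in KO (log2 fold change −2.27, SE 0.51, adjusted p 0.0152); without WT_R1 its adjusted p was 0.0652, and it missed the threshold without cl43_WT_UT too.

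The lowest fold changes were held by genes of low level in KO. CBLN2, a secreted cerebellin, had 3.39, 13.1 and 38.3 CPM in WT and 0, 0.597 and 3.44 CPM in KO (log2 fold change −3.91, SE 0.74, adjusted p 0.00496). RGS4, which dampens G protein signals, had 0.925, 16.9 and 54.6 CPM in WT and 0, 2.62 and 3.61 CPM in KO (log2 fold change −3.24, SE 0.80, adjusted p 0.039; lost in 9 of the 12 fits, 0.127 without cl43_WT_UT). TGFB2, a growth factor of the heart cushions, had 1.54, 5.03 and 13.8 CPM in WT and 0, 0.921 and 2.22 CPM in KO (log2 fold change −2.58, SE 0.63, adjusted p 0.0305; lost in 7 fits, 0.117 without cl43_WT_UT). The groups overlapped in all 3. SPSB4 had 35.2, 40.7 and 142 CPM in WT and 11.5, 15.0 and 24.1 CPM in KO, apart (log2 fold change −2.10, SE 0.40, adjusted p 0.00295). UNC5C, a netrin receptor, had 2.78, 9.56 and 21.9 CPM in WT and 0.574, 2.90 and 3.83 CPM in KO, with overlap (log2 fold change −2.05, SE 0.40, adjusted p 0.00409). SLC30A3, a zinc transporter, had 32.8, 94.6 and 146 CPM in WT and 17.2, 27.0 and 33.7 CPM in KO, with overlap (log2 fold change −1.88, SE 0.34, adjusted p 0.00169), and PLEKHA7, a junction protein, 8.38, 14.8 and 18.7 CPM in WT and 1.91, 3.79 and 6.02 CPM in KO, apart (log2 fold change −1.86, SE 0.40, adjusted p 0.0088). Of these 7 only TGFB2 was called without clone cl4 (adjusted p 0.0482).

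Several groups held no called gene: pluripotency (14 tested), retinoid pathway (22), cell cycle and mitosis (36), p53 and stress (20) and sterol and fatty acid synthesis (24). All 24 sterol genes had a negative log2 fold change, with a median of −0.34. Over all 26 lists, 42 of 544 genes tested were called (7.72%, with 20 higher and 22 lower), 684 being listed, and the median was −0.15. Of all genes tested 0.993% were called. Summed markers of other cell types are given beside these counts, and their part in the results was not tested. Those of amnion, none at 0, summed to 142 to 169 CPM in WT and 78.9 to 118 CPM in KO. Most of this sum was ISL1 (means of 101 CPM in WT and 60.6 CPM in KO), which is also among the cardiac mesoderm markers. The amnion markers GABRP, VTCN1 and KRT7 had means of at most 1.87 CPM in either group. Those of blood and endothelium summed to 4.89 to 15.0 CPM and 4.59 to 7.0 CPM, with TAL1 at 0 in both groups. Definitive endoderm markers summed to 9.18 to 84.5 CPM and 24.1 to 106 CPM with TTR at 0 in both. Neural and surface ectoderm markers summed to 323 to 476 CPM and 357 to 458 CPM with PAX6 at 0 in both. Most of this sum was NES (means of 338 CPM in WT and 317 CPM in KO), while SOX1, TFAP2B, DLX5 and GRHL2 had means of at most 1.75 CPM. Epicardial markers summed to at most 8.42 CPM.

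The day 2.5 differences were next set beside those of the other days. At day 1.5, when the cells were still a flat layer, edgeR called no gene of 13797 (0%), and 591 had an unadjusted p under 0.05. At day 4.5, 516 genes were called (3.74%), and at day 7.5 48 were (0.348%). Of the 137 genes of day 2.5, 22 were called at day 4.5, 21 in the same direction (16.1% of the 137 and 4.26% of the genes called at day 4.5). They comprised PRRT2, PPFIA2, FOXC1, SRGAP3, TXNIP and PRELID2 on the higher side and 15 on the lower side, among them KRT18, KRT8, ACTC1, MYL7, WLS and COL2A1. CORIN, a natriuretic peptide processing enzyme, was the exception: it had 3 counts over the WT and 32 over the KO libraries at day 2.5 (ratio 14.5, 95% counting interval 4.53 to 73.9) and was lower in KO at day 4.5 (log2 fold change −2.65, SE 0.62, adjusted p 0.0105). Its day 2.5 call was lost in 9 of the 12 fits without 1 library, with an adjusted p of 0.272 without KO cl46_R1. At day 7.5, COL2A1 and PERP were called, both lower again.

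Levels by day show where the groups parted. MESP2 had means of 68.1 and 54.6 CPM in WT and KO at day 1.5, 3.84 and 42.4 CPM at day 2.5, and 0.469 and 0.698 CPM at day 4.5. MESP1 had 93.9 and 87.2 CPM at day 1.5 and 2.94 and 18 CPM at day 2.5. MIXL1 had 1561 and 1774 CPM at day 1.5 and 3.37 and 18.9 CPM at day 2.5, so in KO too it was far below its day 1.5 level. PCDH19 had 20.3 and 23.8 CPM at day 1.5 and 22.8 and 93.8 CPM at day 2.5, a level in KO above those of the other days. TBX5 was at 0 in all libraries of day 1.5, at 30.2 and 7.21 CPM at day 2.5, and at 229 and 243 CPM at day 4.5. ACTC1 had 32.6 and 32.8 CPM at day 1.5, 143 and 36.6 CPM at day 2.5, and 3981 and 1334 CPM at day 4.5. Steps between days share libraries with the KO comparison, so they are given as levels only.

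**Figure D4:**
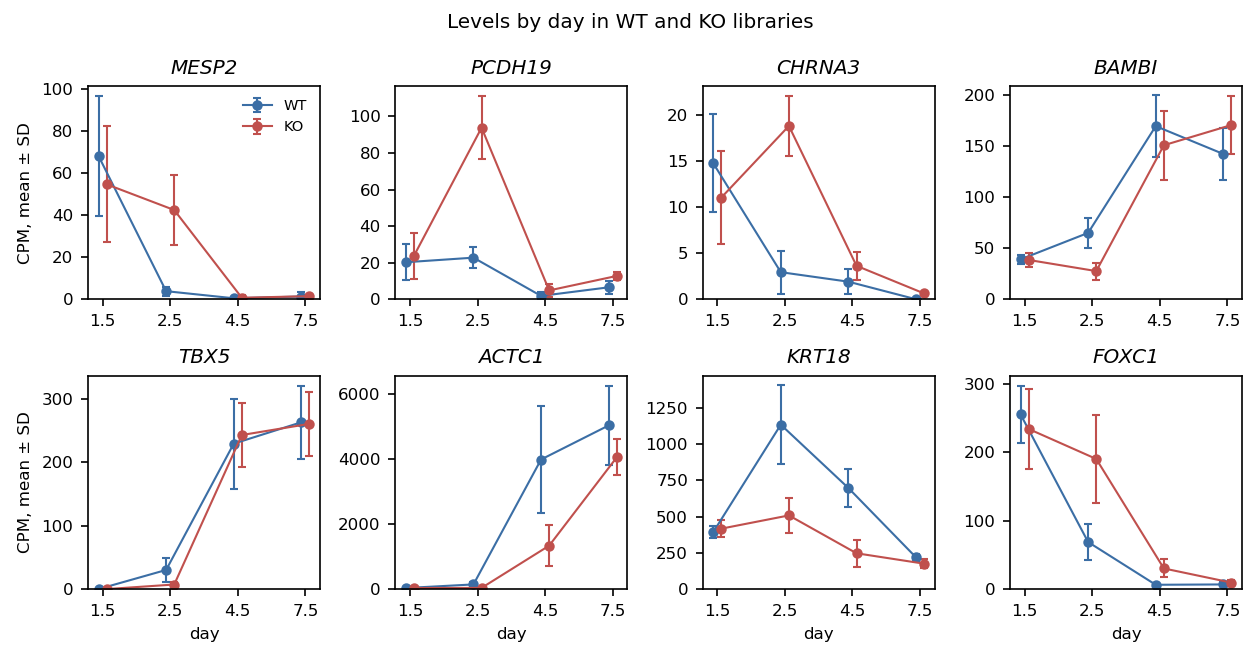
Mean CPM with SD in WT (blue) and KO (red) at days 1.5, 2.5, 4.5 and 7.5 (5, 6, 6 and 3 WT and 6, 6, 6 and 3 KO libraries). MESP2 and FOXC1 are higher in KO than in WT at day 2.5, TBX5 and BAMBI are lower in KO at day 2.5 and close to WT at day 4.5, and KRT18 and ACTC1 are lower in KO at both days.

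The change of the KO effect between days was tested itself. Against day 1.5, 11 genes differed (0.0797% of 13797), and all 11 were among the 137; leaving out 1 library gave 3 (KO cl4_R3 of day 1.5) to 20 (WT_TU_R1 of day 2.5). These are not separate evidence, since both use the day 2.5 libraries. MESP2 (difference 3.71, SE 0.59, adjusted p 0.00259), WNT4, CHRNA3, MIXL1 and C6orf132 had a more positive effect at day 2.5. WLS, ALPK3, BAMBI (difference −1.27, SE 0.27, adjusted p 0.0463), ATF7IP2, MYL4 and UNC5C had a more negative one. For WNT4 and MYL4, part of the difference was an uncalled day 1.5 log2 fold change of opposite sign (−2.79 and 1.34). Against day 4.5, 84 genes differed (0.609%), 23 of them among the 137; leaving out 1 library gave 43 (KO cl46_R1 of day 4.5) to 143 (cl43_WT_UT of day 4.5), and the library blocks in the fit gave 318. Among the named genes, MIXL1 (difference 2.87, SE 0.50, adjusted p 0.00136), SFRP1, C6orf132 and FAM162A had a more positive effect at day 2.5, and TBX5 (difference −2.05, SE 0.45, adjusted p 0.0242), BAMBI, FZD4, EPHB2, UNC5C, TGFB2, RGS4 and CBLN2 a more negative one. COL2A1 was lower in KO at both days and less so at day 2.5 (difference 1.19, SE 0.28, adjusted p 0.0293).

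The enzyme arm asks whether removing hyaluronan from day 1.5 touches the same genes, in libraries that the KO comparison does not use. HAse1.5 differed from untreated at day 2.5 in 146 of 12748 genes (1.15%), and in 228 with the line as a replicate block, all 146 among them. The counts and single-gene values that follow are from the fit without this block, which leaves the pairing by line unused. Leaving out 1 of these 6 libraries gave 61 (HAse1.5 replicate 1) to 225 (HAse1.5 replicate 2). Of the 137 genes called in KO, 123 were tested there, 31 were called (25.2%), and 30 had the same direction. The lower genes made up most of these: 27 of 68 tested were called, and 67 of 68 had a negative log2 fold change (median −1.36). Of the 55 higher genes tested, 4 were called (MESP2, CHRNA3, MIR210HG and ROBO1) and 43 had a positive log2 fold change (median 0.51). The 31 genes are 22.6% of those called in KO and 21.2% of those called with the enzyme.

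MESP2 had 4.60, 2.68 and 1.12 CPM in the untreated libraries (lines TNNI1, WT and TNNT2) and 85.8, 35.1 and 56.2 CPM in the HAse1.5 libraries (log2 fold change 4.30, SE 0.66, adjusted p 0.00147). CHRNA3 had 3.57, 0.894 and 2.80 CPM and 48.7, 16.0 and 40.0 CPM (log2 fold change 3.67, SE 0.59, adjusted p 0.00117). MESP1 had 5.11, 2.68 and 2.24 CPM and 41.9, 35.1 and 27.5 CPM, and did not pass in this fit without the line block (log2 fold change 3.28, SE 0.86, adjusted p 0.0611). In all 3 the treated libraries lay above the untreated ones. PCDH19 had 28.1, 18.8 and 13.5 CPM untreated and 27.5, 30.4 and 14.4 CPM treated (log2 fold change 0.22, SE 0.45, adjusted p 0.99). TBX5 had 45.4, 59.0 and 46.5 CPM untreated and 2.75, 7.19 and 1.87 CPM treated (log2 fold change −3.74, SE 0.43, adjusted p 2.7e-05). ACTC1 had 134, 145 and 386 CPM untreated and 8.92, 33.6 and 30.6 CPM treated (log2 fold change −3.23, SE 0.60, adjusted p 0.00605). PKP2 fell from 31.2, 41.1 and 40.4 CPM to 4.80, 7.99 and 1.87 CPM (log2 fold change −3.0, SE 0.37, adjusted p 3.99e-05). SEMA3C had 6.13, 25.9 and 29.2 CPM untreated and 0 counts in each treated library. The treated libraries lay below the untreated ones for these 4.

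**Figure D5:**
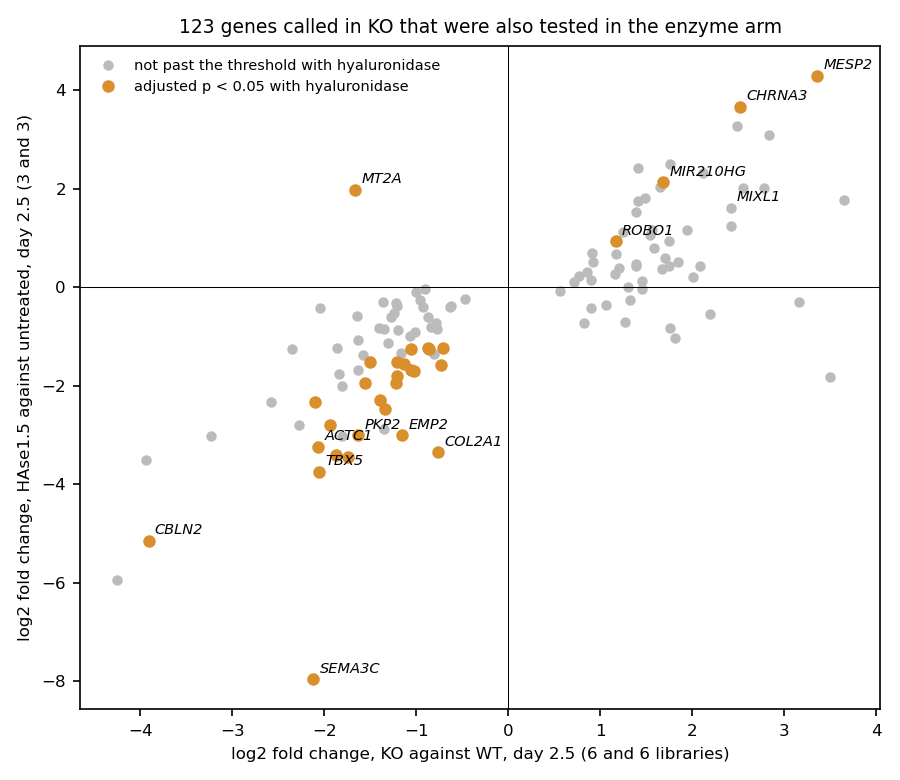
Log2 fold change with HAse1.5 against untreated (vertical, 3 and 3 libraries) for the 123 genes called in KO at day 2.5 (horizontal, 6 and 6 libraries); orange points have an adjusted p under 0.05 in the enzyme arm. The orange points other than MT2A lie in the quadrants of equal direction, and 27 of the 31 are on the lower side.

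Whether the KO and enzyme effects differ was tested in 1 fit of all libraries. Of 14047 genes 13 differed (0.0925%), and 3 of them were called in KO; with a replicate block 38 differed, and without HAse1.5 replicate 3 none did. EMP2, a tetraspan membrane protein, was lower in KO (log2 fold change −1.15) and more so with the enzyme (log2 fold change −3.0, SE 0.30, adjusted p 2.02e-06; difference 1.81, adjusted p 0.00767). COL2A1, a fibrillar collagen, was lower in KO (84.9, 119 and 135 CPM in WT and 55.7, 68.9 and 86.2 CPM in KO; log2 fold change −0.77, SE 0.20, adjusted p 0.0477; lost in 10 of the 12 fits without 1 library, adjusted p up to 0.119 without KO cl14_R1) and lower still with the enzyme (log2 fold change −3.35, SE 0.59, adjusted p 0.00359; difference 2.54, adjusted p 0.00822). MT2A, a metallothionein that binds zinc, was lower in KO (14.3, 27.8 and 52.9 CPM in WT and 5.75, 10.6 and 15.9 CPM in KO; log2 fold change −1.66, SE 0.41, adjusted p 0.0291; lost in 6 of the 12 fits, up to 0.129 without WT_R1) and higher with the enzyme (23.0, 23.3 and 39.3 CPM untreated and 94.7, 88.7 and 167 CPM treated; difference −3.69, adjusted p 0.00709). Measured against the means of WT and KO, the 3 untreated libraries were nearer WT for 119, 114 and 111 of the 137 genes, and the 3 HAse1.5 libraries for 33, 58 and 52.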

How the data were processed

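Cardioid RNA was sequenced from the 3′ end with the QuantSeq FWD kit, per the labels' protocols. The authors deposited 1 table of raw counts per Ensembl gene (58735 IDs, all placed by GENCODE 29, 58207 with a symbol in the reference gene name table) for the whole series. Reads were assigned with featureCounts from Subread 1.6.2 on GRCh38/hg38, per the submitters' processing notes. The aligner and the strand setting are not given in the sources used here. 4 columns of no listed sample were not used.

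Counts were fitted with edgeR 4.0.16 (R 4.3.3, limma 3.58.1) by its quasi-likelihood test, two-sided, with TMM scaling, filterByExpr (minimum count 10) and 1 mean per group. KO and WT libraries of all 4 days shared a fit, the enzyme arm had its own, and all 65 libraries were used to compare the 2 effects. Benjamini-Hochberg adjustment covered each whole fit, and genes with an adjusted p under 0.05 were called. SEs were taken from the log2 fold change and its F statistic. CPM are a gene's counts divided by the library's total gene count and scaled to a common total. Library placements used log2 CPM with a prior count of 2. Counting intervals are exact at 95% and cover counting error only. The script was tested on simulated data. In the enzyme arm, replicate numbers 1 to 3 stand for 1 line each and so pair the libraries. The main fits held no term for this pairing or for the library blocks, so their p-values do not use them.

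The text names HAS2, the 14 highest and 14 lowest log2 fold changes among called genes with an absolute value of at least 1 and a mean of at least 5 CPM in 1 group, every called list member and key members. Some genes under this rule are not reported here. Further genes were picked after their values were seen. The comparison, lists and rule were chosen with earlier results of these data known. Alternatives were DESeq2 1.42.0, other size factors, no filter, a replicate block, subsets of the libraries and leaving out each library in turn.

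Depth was 831062 to 3241683 counts per day 2.5 library. Library pairs within a group differed beyond counting noise, with a chi-square per degree of freedom of 2.10 to 38.7 over 30 pairs, so each was used as 1 sample. The high values were those of a block A library with a library of block B or C, at 28.8 to 38.7 in WT and 9.10 to 11.6 in KO. No other pair was above 4.93. This does not show that libraries of 1 line or clone came from separate cultures.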

Additional observations from a re-analysis of the deposited data

Results flagged for a closer look

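In 18 of 162 groups of 6 libraries checked, over the named genes at day 2.5, the highest or lowest library stood apart from the other 5 by more than Dixon's 95% limit. That limit is made for normally distributed values, and CPM near 0 are not, so the number given by chance is not known here. A library with counts beside 5 at 0 passes by construction, as for PPP1R17, TNNT2 and MYH6. WT_TU_R1 was the highest WT library for PPP1R17 (0.308 CPM, next 0), MESP2 (8.02 CPM, next 4.19), OTX1 (4.63 CPM, next 0.734), FAM162A (37.0 CPM, next 19.1), C6orf132 (32.1 CPM, next 20.9), TBX6 (21.6 CPM, next 8.44) and LDHA (368 CPM, next 217). WT_R1 was the highest for CRB2 (286 CPM, next 177), KRT8 (1898 CPM, next 1052), CDH3-AS1 (127 CPM, next 53.4) and NKX2-5 (179.9 CPM, next 77.7). Among KO libraries, cl4_R1, the shallowest, was the highest for VCL (223 CPM, next 152), ACTC1 (72.2 CPM, next 39.5) and PGK1 (324 CPM, next 247). ITGA9 was lowest in cl4_R2 (14 CPM, next 23.5). CBLN2 was highest in cl51_R1 (3.44 CPM, next 1.04), TNNT2 in cl4_R3 (1.11 CPM) and MYH6 in cl46_R1 (0.638 CPM), the other KO libraries being at 0 for TNNT2 and MYH6. The values of PPP1R17 and MYH6 are 1 count each.

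The KO effect differed between days 2.5 and 4.5 by the test of the difference for these named genes, each with the difference in log2 fold change and its adjusted p (edgeR quasi-likelihood test): C10orf71 (3.51, 0.04), PPFIA4 (3.75, 0.00142), MIXL1 (2.87, 0.00136), SFRP1 (1.09, 0.0419), FZD4 (−0.89, 0.0333), EPHB2 (−1.27, 0.0202), BAMBI (−1.06, 0.04), UNC5C (−2.47, 0.00838), TBX5 (−2.05, 0.0242), TGFB2 (−3.29, 0.0179), RGS4 (−4.69, 0.0269), CBLN2 (−4.52, 0.0202), FAM162A (1.90, 0.0383), CORIN (6.15, 0.00251), C6orf132 (1.96, 0.00581), COL2A1 (1.19, 0.0293) and ATF7IP2 (−1.13, 0.0396). Positive differences mean a more positive effect at day 2.5. Between days 2.5 and 1.5 the differences were MESP2 (3.71, 0.00259), CHRNA3 (2.96, 0.0383), MIXL1 (2.26, 0.0383), WNT4 (5.03, 0.0191), WLS (−1.04, 0.0463), BAMBI (−1.27, 0.0463), MYL4 (−3.28, 0.0463), UNC5C (−2.56, 0.0398), C6orf132 (1.91, 0.0148), ALPK3 (−1.39, 0.0152) and ATF7IP2 (−1.43, 0.0383). The differences of WNT4 and MYL4 include an uncalled day 1.5 effect of opposite sign. Between KO and HAse1.5 the differences were EMP2 (1.81, 0.00767), COL2A1 (2.54, 0.00822) and MT2A (−3.69, 0.00709), positive where KO was less negative.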

How the results depend on the processing

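The 137 genes called at day 2.5 kept their direction in every alternative in which they had a value, but the count depended on the libraries and the fit. It was 232 with DESeq2 (135 of the 137 among them), 136 with RLE size factors, 96 with no filter on low counts (92 shared), 142 with only the 12 day 2.5 libraries (85 shared), 237 with counts summed per line (98 shared), 535 with library block C alone (109 shared) and 277 with the untreated enzyme-arm libraries added to WT (124 shared). Without clone cl4 it was 30, of which 27 were among the 137. Leaving out 1 library at a time gave 66 (without WT_R1) to 146 (without WT_TU_R2). A replicate block, made of the library blocks, gave 292, and 405 with only the 12 libraries. Of 4 same-numbered KO and WT pairs, from blocks A and B, 3 had a correlation of deviations above 0.1 (median 0.18). For pairs of the same block it was 8 of 12 (median 0.12), and for pairs of different blocks 1 of 24 (median −0.05). Libraries of the same block thus deviated together more often. Same-numbered pairs are also same-block pairs, so the R number cannot be told apart from the block. The main fit held no block term, so its p-values do not account for this. With no filter on low counts and with the replicate block respectively, the counts were 254 and 829 for KO at day 4.5 (516), 43 and 115 at day 7.5 (48), and 58 and 318 for the difference between days 2.5 and 4.5 (84). They were 7 and 28 for the difference between days 2.5 and 1.5 (11), 290 and 228 for HAse1.5 (146), and 42 and 38 for KO minus HAse1.5 (13). KO at day 1.5 gave 0 with edgeR in these settings. Leaving out 1 library gave 43 to 143 for days 2.5 and 4.5, 3 to 20 for days 2.5 and 1.5, 61 to 225 for HAse1.5, and 0 (without HAse1.5 replicate 3) to 22 for KO minus HAse1.5. Beyond the settings' own construction, with fewer libraries or genes tested, the cause was not tested. For 81 named genes, 1415 of 1717 values under an alternative stayed on the same side of the threshold, 269 lost and 33 gained the call, and none reversed. Depth limits genes of a few CPM, where 1 count is about 1 CPM in the shallowest library.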

Other observations

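Several called genes outside the lists were picked after their values were seen. TXNIP, a thioredoxin-binding protein that also restrains glucose uptake, had 47.4, 62.2 and 67.8 CPM in WT (lowest, median and highest) and 114, 143 and 156 CPM in KO, with every KO library above WT (log2 fold change 1.16, SE 0.23, adjusted p 0.004; edgeR quasi-likelihood test; 0.0546 without clone cl4). ROBO1, a SLIT receptor, had 36.7, 63.3 and 97.7 CPM in WT and 115, 156 and 165 CPM in KO, apart (log2 fold change 1.17, SE 0.25, adjusted p 0.00991; 0.0502 without WT_R1 and 0.0927 without clone cl4), and was also called with the enzyme (log2 fold change 0.94, SE 0.23, adjusted p 0.0373). On the lower side, PSTPIP2, a membrane-bending adaptor of the actin skeleton, had 57.9, 72.1 and 110.1 CPM in WT and 17.8, 29.5 and 31.3 CPM in KO, apart (log2 fold change −1.64, SE 0.23, adjusted p 8.66e-05; 0.00876 without clone cl4). EMP2 had 117, 169 and 211 CPM in WT and 63.4, 73.8 and 108 CPM in KO, apart (log2 fold change −1.15, SE 0.19, adjusted p 0.000814; 0.028 without clone cl4). ATF7IP2 had 60.5, 66.8 and 92.9 CPM in WT and 26.8, 28.4 and 35.0 CPM in KO, apart (log2 fold change −1.34, SE 0.20, adjusted p 0.000117; 0.0184 without clone cl4).

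The segmentation genes and streak transcription factors of the lists that were too low to be tested are given as raw counts. These are not scaled for depth, which had a median of 1997768.5 counts per library in WT and 1656555 in KO. A slightly lower raw sum in KO, as for NRARP, therefore does not show a lower level. Summed over the 6 libraries of each group, PCDH8, a protocadherin of forming somites, had 1 count in WT and 27 in KO, and MEOX1, a somite homeobox factor, had 2 and 36. HEYL had 14 and 29 counts, HES7 4 and 7, PAX3 0 and 7, RIPPLY2 0 and 3, and NRARP 18 and 16. MSGN1 had none in either group. Of the streak factors, CDX1 had 1 and 1, CDX2 0 and 4, and CDX4 1 and 0. Most of these sums are too small to compare.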
